A study of Mus musculus with 8 samples.

Results

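The Hox genes encode homeodomain transcription factors and lie in 4 clusters. They were taken as the rows of the deposited mouse lung table whose symbol was Hoxa, Hoxb, Hoxc or Hoxd followed by a number, which gave 39 of 25965 genes. Of these, 11 were in the Hoxa cluster, 10 in Hoxb, 9 in Hoxc and 9 in Hoxd. The study sequenced whole-lung RNA of 2 genotypes, Wfdc2+/+ and Wfdc2 GFP/GFP. In the latter, a GFP cassette knocked into Wfdc2, an epithelial gene for a secreted protease inhibitor of the WAP family, replaces part of its coding exons. There were 2 libraries from each genotype in late gestation (E18.5, counted in embryonic days) and 2 after birth (P1.5, in postnatal days), 8 in all, and the control libraries carried no other labelled allele. The knock-in was made in TT2 embryonic stem cells, and every cell of the GFP/GFP lung lacks intact Wfdc2, although the gene is normally read in airway epithelium. The 2 genotypes were compared to learn how loss of Wfdc2 alters the lung around birth, and the 2 stages differ by the onset of breathing as well as by age.

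Hox genes of one cluster lie on one strand in the order of their paralogue numbers. During development, genes at the low-numbered end are generally switched on earlier and further forward in the body, and those at the high-numbered end later and further back, so that the set of active genes records position along the body axis. In the lung, Hox transcripts are known mainly from the mesenchyme, and mice without Hoxa5 have malformed airways and often die at birth. Hox proteins bind DNA with TALE homeodomain partners of the Pbx and Meis families, retinoic acid can induce low-numbered genes, and Polycomb complexes keep unused parts of a cluster silent.

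The promoters of 6 members are shown because the reads change along the clusters at these genes: Hoxa5 had the highest level of any member, Hoxa9 and Hoxd10 lie just past the last member with more than a few reads in their clusters, Hoxb8 was the last such gene of Hoxb, and Hoxd8 and Hoxd9 had the highest mean reads of Hoxd. RefSeq sequences (GRCm38.p6) were matched for 22 of the 39 members, with 24 starts. Each run is the 250 bases before the RefSeq start, read 5′ to 3′ on the gene's strand, and the Hoxd9 run ends after 167 bases, before the start of the deposited gene. Capitals mark, on either strand, the TATA box letters TATAAA, the letters CCAAT bound by the factor NF-Y, or TGATNNAT, a pattern bound by Pbx and Hox proteins together. In the windows shown no match overlaps another. The Hoxa9 and Hoxd10 windows lie inside the longer spans counted for these genes.
Hoxa5: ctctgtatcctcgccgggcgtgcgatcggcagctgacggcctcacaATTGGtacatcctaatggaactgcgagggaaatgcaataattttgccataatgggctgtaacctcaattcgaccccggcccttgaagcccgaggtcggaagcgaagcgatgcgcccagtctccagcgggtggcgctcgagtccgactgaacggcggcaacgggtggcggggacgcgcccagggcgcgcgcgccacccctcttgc
Hoxa9: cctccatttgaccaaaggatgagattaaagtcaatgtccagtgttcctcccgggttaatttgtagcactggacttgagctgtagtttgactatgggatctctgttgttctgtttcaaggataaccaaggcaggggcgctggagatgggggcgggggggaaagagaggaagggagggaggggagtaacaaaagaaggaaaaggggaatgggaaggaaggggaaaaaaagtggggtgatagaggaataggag
Hoxb8: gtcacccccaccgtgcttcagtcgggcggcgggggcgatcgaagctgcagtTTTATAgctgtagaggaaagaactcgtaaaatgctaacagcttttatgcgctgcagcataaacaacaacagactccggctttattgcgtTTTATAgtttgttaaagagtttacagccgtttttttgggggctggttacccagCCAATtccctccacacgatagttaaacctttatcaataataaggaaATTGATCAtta
Hoxd8: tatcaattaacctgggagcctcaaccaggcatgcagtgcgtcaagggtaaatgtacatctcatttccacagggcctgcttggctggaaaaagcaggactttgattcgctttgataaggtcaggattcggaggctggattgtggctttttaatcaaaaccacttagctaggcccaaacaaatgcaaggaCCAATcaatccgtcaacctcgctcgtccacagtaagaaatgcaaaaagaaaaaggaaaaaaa
Hoxd9: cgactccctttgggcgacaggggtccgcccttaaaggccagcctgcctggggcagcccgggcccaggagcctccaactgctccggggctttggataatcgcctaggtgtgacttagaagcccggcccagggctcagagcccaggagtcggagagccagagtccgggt
Hoxd10: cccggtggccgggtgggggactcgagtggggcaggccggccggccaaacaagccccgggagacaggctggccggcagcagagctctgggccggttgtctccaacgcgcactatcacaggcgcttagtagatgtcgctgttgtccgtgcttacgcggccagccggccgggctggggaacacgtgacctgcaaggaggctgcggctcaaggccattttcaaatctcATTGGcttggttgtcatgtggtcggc

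The Hoxa5 window, at chr6:52204588-52204837 on the minus strand, held 28 CpG and 1 CCAAT match. Hoxb8, at chr11:96281655-96281904, held 12 CpG, 2 TATAAA matches, 1 TGATNNAT match and 1 CCAAT match. Hoxa9, at chr6:52227371-52227620 on the minus strand, held 3 CpG, and Hoxd9, at chr2:74697513-74697679, held 9, and neither held any of the 3 patterns. Hoxd8, at chr2:74704365-74704614, held 6 CpG and Hoxd10, at chr2:74691641-74691890, held 20, with 1 CCAAT match each. Over the 24 Hox windows of 250 bases, the median was 12.5 CpG, against 6 over 32851 promoters. CCAAT was in 14 of the 24 Hox windows and in 33.8% of all promoters, TATAAA in 4 of 24 and in 12.4%, and TGATNNAT in 4 of 24 and in 7.68%. CpG number did not order the members by reads: the window of Hoxa13, with 35 CpG, belonged to a gene with no reads in 6 of 8 libraries. A match is a description of these letters and not a binding site.

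Library depth is here the total by which the deposited values were scaled, recovered from their steps, and was 19457647 to 37209333. It is not a count of reads assigned to genes, and the highest exceeds the mapped reads the paper lists for any library. Wfdc2 had 8038 to 32845 reads in the Wfdc2+/+ libraries and 0 to 12 in the GFP/GFP libraries. Replicate 1 of each group carried 4121 to 90980 Xist reads and replicate 2 carried 1 to 13, whereas Ddx3y had 0 to 3 reads in replicate 1 and 972 to 2175 in replicate 2, so each group held a library of each sex pattern. All mesenchymal and epithelial lung markers listed had reads in each group. The hepatocyte markers summed to 7.05 and 73.8 RPM (reads scaled to library depth, as in RPKM but without the length) in P1.5 Wfdc2+/+. In the other groups they summed to 0.995 to 2.15 RPM. The 2 P1.5 replicate 1 libraries stood apart, with median log2 RPKM (reads per kilobase of gene, scaled to library depth) of -0.96 and -0.95 over the 15627 genes tested, against -0.63 to 0.02 in the other 6. The paper describes the Wfdc2+/+ samples as littermate controls. No source states that replicates came from separate litters, so p-values measure the spread between these samples only. In whole lung, fewer cells of a type and less RNA per cell cannot be told apart.

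Along the clusters, Hox reads came from the low-numbered and middle genes of Hoxa and Hoxb, hardly at all from Hoxc, and from a few genes of Hoxd. The reads of the 39 members, with nested genes counted once, came to 0.00939% to 0.0276% of the library depth. Of these Hox reads, Hoxa held 51.1% to 64.0% in the different libraries and Hoxb 34.7% to 43.1%. Hoxc held 0.184% to 0.726% and Hoxd 1.07% to 5.80%. A mean of at least 100 reads was reached by 10 members, namely Hoxa2, Hoxa3, Hoxa4, Hoxa5, Hoxa7, Hoxb2, Hoxb3, Hoxb4, Hoxb5 and Hoxb6. At the other end, 12 members had at most 3 reads in every library, and 6 of these, Hoxa11, Hoxb13, Hoxc11, Hoxc12, Hoxd12 and Hoxd13, had none anywhere. A count of 0 allows up to 3 reads, which is 0.0806 to 0.154 RPM at these depths and covers counting error only.

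**Figure D1:**
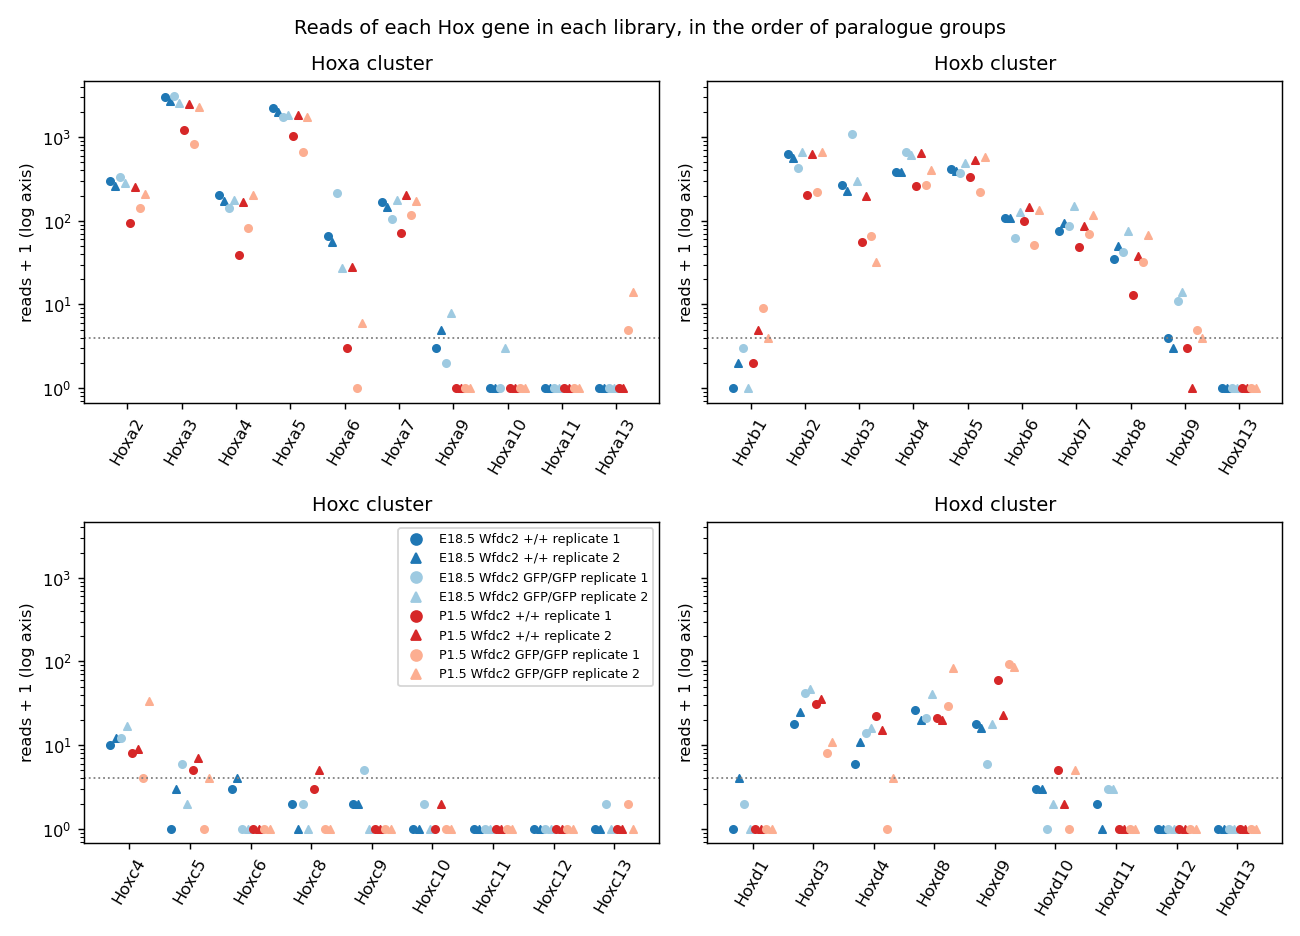
Reads plus 1 of 38 Hox genes in each of the 8 libraries (log axis), with a panel for each cluster and genes in paralogue order; colours give stage and genotype, circles replicate 1 and triangles replicate 2, and the dotted line marks 3 reads. Reads drop between Hoxa7 and Hoxa9, between Hoxb8 and Hoxb9, and between Hoxd9 and Hoxd10 in all 8 libraries.

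The drop within Hoxa fell between neighbouring genes. Hoxa7 (chr6:52214491-52221854) had 165 and 147 reads in E18.5 Wfdc2+/+, 103 and 178 in E18.5 GFP/GFP, 70 and 203 in P1.5 Wfdc2+/+ and 116 and 171 in P1.5 GFP/GFP. Hoxa9 (chr6:52223100-52231089), the next gene and a patterning gene of the trunk and limb, had 2, 4, 1 and 7 reads at E18.5 and 0 in all 4 P1.5 libraries. The lowest Hoxa7 library thus held 70 reads and the highest Hoxa9 library 7. Beyond it, Hoxa10 had at most 2 reads and Hoxa11 had 0. Hoxa13, at the far end and known from digits and hindgut, had 4 and 13 reads in the P1.5 GFP/GFP libraries and 0 in the other 6.

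In Hoxb the step lay between Hoxb8, with 12 to 75 reads, and Hoxb9, with 0 to 13. The other end was low as well, since Hoxb1, a hindbrain gene, had 0 to 8 reads beside its neighbour Hoxb2 with 205 to 669. Hoxb13 had 0. In Hoxd, Hoxd8 had 19 to 83 reads and Hoxd9 5 to 91, whereas Hoxd10 had 0 to 4, Hoxd11 0 to 2 and Hoxd1 0 to 3. Within each of these 8 libraries, Hoxd9 had more reads than Hoxd10.

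The Hoxc cluster (chr15:102921103-103036843) had 9 members and none that reached the level for testing, a mean of at least 0.05 RPKM. Hoxc4 had the most, with 9, 11, 11 and 16 reads at E18.5 and 7, 8, 3 and 33 at P1.5, and the highest was the P1.5 GFP/GFP replicate 2 library. Hoxc5 had 0 to 6 reads, Hoxc8 and Hoxc9 0 to 4, Hoxc6 0 to 3, and Hoxc10 and Hoxc13 0 to 1. The genes Hoxc11 and Hoxc12 had none.

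Per length of the counted span, Hoxa5 stood first of the 39, with a mean of 20.6 RPKM over the 8 libraries. Hoxb2 followed at 4.47, Hoxb5 at 4.37, Hoxb4 at 3.33, Hoxa2 at 2.69, Hoxa4 at 2.52 and Hoxa3 at 1.80 RPKM, and these 7 were the members at 1 RPKM or more as counted. The Hoxa3 value includes reads of Hox genes nested in its span. With those taken out it was -3.53 to -0.66 log2 RPKM, under 1 RPKM in each library. Hoxb2 and Hoxb5 differed by less than their spread over libraries, as did Hoxa2 and Hoxa4. Counting was over whole gene spans, so a long gene is set low: per kilobase of exon in the GENCODE M21 annotation 12 members reached a value of 1, with Hoxa5 first again at 31.1.

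Hoxa5 (chr6:52201754-52204587), the lung patterning gene, had 2223 and 1998 reads in E18.5 Wfdc2+/+, 1723 and 1828 in E18.5 GFP/GFP, 1023 and 1825 in P1.5 Wfdc2+/+, and 665 and 1760 in P1.5 GFP/GFP. As log2 RPKM these were 4.51 and 4.50, 4.03 and 4.46, 4.06 and 5.05, and 3.34 and 4.41. The lowest value was in P1.5 GFP/GFP replicate 1 and the highest in P1.5 Wfdc2+/+ replicate 2, so the stages overlapped. Hoxa5 alone held 26.7% to 40.5% of the Hox reads of a library.

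Hoxa4 (chr6:52189671-52191753), its neighbour on the low-numbered side, had 201 and 173 reads in E18.5 Wfdc2+/+, 142 and 178 in E18.5 GFP/GFP, 38 and 169 in P1.5 Wfdc2+/+, and 80 and 201 in P1.5 GFP/GFP. The 2 lowest were the P1.5 replicate 1 libraries. Hoxa2 (chr6:52162351-52165413), which patterns the second pharyngeal arch, had 296 and 262, 332 and 279, 92 and 253, and 140 and 208 reads in the same order of groups. Hoxa3 (chr6:52168510-52213336), a gene of thymus and parathyroid formation, had 2995 and 2727, 3137 and 2559, 1220 and 2493, and 835 and 2306. This last row is not a level of Hoxa3 alone, because its counted span encloses Hoxa4, Hoxa5 and Hoxa6 on the same strand, whose reads made up 66.3% to 89.2% of it. With those taken out, 506 and 501, 1058 and 527, 157 and 472, and 90 and 340 reads were left.

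In Hoxb, Hoxb2 (chr11:96351632-96355689), a hindbrain and facial nerve gene, had 632 and 568 reads in E18.5 Wfdc2+/+, 429 and 669 in E18.5 GFP/GFP, 205 and 636 in P1.5 Wfdc2+/+, and 220 and 657 in P1.5 GFP/GFP. Hoxb4 (chr11:96316684-96321638), known from blood stem cells, had 379 and 386, 658 and 612, 257 and 644, and 268 and 399. In log2 RPKM, Hoxb2 was lowest in the P1.5 replicate 1 libraries, at 1.22 and 1.23, and highest in P1.5 Wfdc2+/+ replicate 2, at 3.01, whereas Hoxb4 was lowest in E18.5 Wfdc2+/+ replicate 1, at 1.15. Hoxb5 (chr11:96302595-96306120), a mesenchymal gene of the branching lung, had 416 and 391, 374 and 484, 332 and 533, and 221 and 580. Hoxb6 (chr11:96292476-96301569) had 108 and 108, 62 and 127, 98 and 144, and 50 and 132. Hoxb7 had 47 to 148 reads, and since it overlaps Hoxb8 by 1069 bp on one strand, reads there are counted in both.

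Between stages, 1 of the 17 Hox genes tested passed, Hoxd9, which was higher at P1.5. The 17 were those with a mean of at least 0.05 RPKM (7 of Hoxa, 7 of Hoxb, 3 of Hoxd); the other 22 were not tested and had at most 46 reads in any library. In the limma test with Benjamini-Hochberg adjustment over 15627 genes, 5.14% of all genes passed in this comparison averaged over the genotypes, 2.58% as higher and 2.56% as lower. The median log2 fold change of the 17 was -0.11, against -0.32 over all genes tested. With each library centred on its median, these medians became 0.36 and 0.15, so the direction of the small changes is set by the scaling and no direction is given for them.

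Hoxd9 (chr2:74697680-74700208), a homeobox gene of trunk and limb patterning, had 17 and 15 reads in E18.5 Wfdc2+/+, 5 and 17 in E18.5 GFP/GFP, 59 and 22 in P1.5 Wfdc2+/+, and 91 and 85 in P1.5 GFP/GFP. Its log2 RPKM was -2.36 and -2.39, then -4.23 and -2.12, then 0.10 and -1.16, then 0.64 and 0.20. The 4 P1.5 values lay above the 4 E18.5 values, and it was the only tested Hox gene without overlap between the stages, against 20.9% of all genes tested (7.28% of all genes were higher without overlap). The log2 fold change was 2.72 (SE 0.51), a 6.59-fold higher level at P1.5, with an adjusted p of 0.0358 by limma. Within replicate 1, the libraries with Xist reads, the P1.5 mean lay 3.66 above the E18.5 mean on the log2 RPKM scale, and within replicate 2, those with Ddx3y reads, 1.78 above it (2 libraries a stage each, no test). With the replicate number as a block, which is also this sex pattern, the adjusted p was 0.0576 and the call was lost. It was also lost at 0.0644 without the filter on low values, and when any single library other than E18.5 GFP/GFP replicate 2 or P1.5 Wfdc2+/+ replicate 2 was left out, which is 6 of the 8 (adjusted p 0.0549 to 0.129). Without both P1.5 replicate 1 libraries, where the call was lost too, the log2 fold change was 2.30 (adjusted p = 0.147).

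Markers of cell types differed in the same comparison. The 9 epithelial markers summed to 9114 to 24454 RPM at E18.5 and 35479 to 77067 RPM at P1.5, without overlap. The 4 mesothelial markers summed to 546 to 1215 RPM and 1366 to 3623 RPM, also without overlap. The median log2 fold changes were 0.005 over the epithelial and 0.71 over the mesothelial markers, beside -0.32 over all genes tested. A sum is weighted to the most abundant markers and does not show that each one rose. The 10 mesenchymal markers summed to 4588 to 6434 RPM at E18.5 and 1331 to 7291 RPM at P1.5, which overlapped, with a median log2 fold change of -1.07. The 8 leukocyte markers summed to 90.8 to 141 RPM at E18.5 and 575 to 1598 RPM at P1.5. Of the 7 tested, 3 passed as higher at P1.5 (2.58% of all genes), S100a9 by 4.23, S100a8 by 4.05 and Cd79a by 4.04 on the log2 scale. The muscle markers summed to 122 to 511 RPM at E18.5 and 257 to 746 RPM at P1.5, which overlapped. The cartilage and thymus markers summed to 22.1 to 65.7 RPM at E18.5 and 9.11 to 18.2 RPM at P1.5. Of the other lists named here, 1 epithelial and 1 muscle marker passed as higher, and 1 cartilage or thymus marker as lower (2.56% of all genes). Of the mesenchymal markers 1 passed as higher and 1 as lower, and of the mesothelial markers 0 passed. Of 4 tested hepatocyte markers 1 passed as higher, with a median log2 fold change of 2.73. The part of any of these in the Hoxd9 result was not tested.

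**Figure D2:**
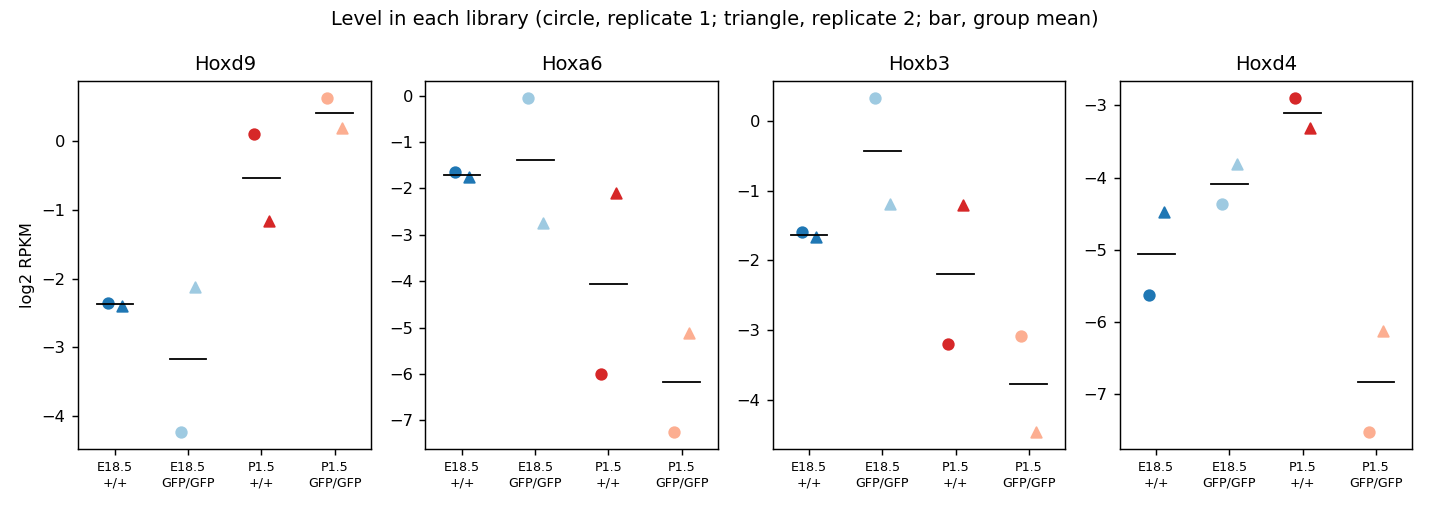
Log2 RPKM of Hoxd9, Hoxa6, Hoxb3 and Hoxd4 in each library, grouped by stage and genotype, with bars at the group means; each panel has its own vertical scale. Hoxd9 is higher in the 4 P1.5 libraries than in the 4 E18.5 libraries, and Hoxd4 is lower in GFP/GFP than in Wfdc2+/+ at P1.5 and higher at E18.5.

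Hoxa6 and Hoxb3 had the largest negative stage values, and neither passed. Hoxa6 (chr6:52205431-52211356) had 65 and 55 reads in E18.5 Wfdc2+/+, 214 and 26 in E18.5 GFP/GFP, 2 and 27 in P1.5 Wfdc2+/+, and 0 and 5 in P1.5 GFP/GFP. Its stage log2 fold change was -3.57 (SE 0.97, limma adjusted p = 0.0589), and the P1.5 Wfdc2+/+ replicate 2 value of -2.09 log2 RPKM overlapped the E18.5 value of -2.74. Hoxb3 (chr11:96323326-96346685) had 266 and 229, 1095 and 300, 55 and 198, and 64 and 31 reads, with the E18.5 GFP/GFP replicate 1 library highest. Its stage log2 fold change was -1.96 (SE 0.57, limma adjusted p = 0.0637). When genes with at most 3 reads in every library were also left out of the limma test, Hoxa6 passed (adjusted p = 0.0432) and Hoxb3 did not (0.0508). In that setting 1891 of all 14814 genes passed. Over 12 other settings, single libraries left out aside, Hoxa6 passed in this 1 only and Hoxb3 in 0. The Hoxa6 value was -1.60 with 0.1 RPKM added before the log and -0.39 with 1 RPKM added, so its size depends on how low values are handled.

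Both genes, like the remaining reads of Hoxa3, were highest in the library where genes of long introns stood highest against those of short introns. The median deviation of 974 long-intron genes minus that of 3028 short-intron genes was 0.80 log2 units in E18.5 GFP/GFP replicate 1, 0.50 and 0.37 in E18.5 Wfdc2+/+, and 0.01 in E18.5 GFP/GFP replicate 2. At P1.5 it was -0.58 and 0.05 in Wfdc2+/+ and -0.55 and -0.32 in GFP/GFP. Its part in the Hoxa6 and Hoxb3 values was not tested.

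**Figure D3:**
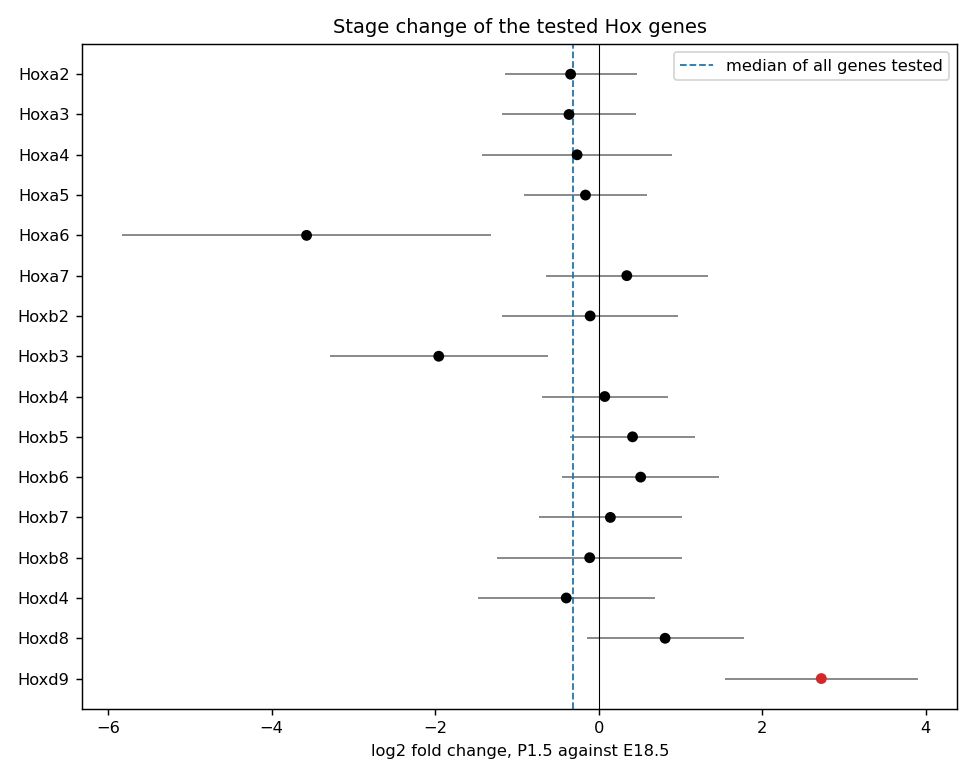
Log2 fold change between P1.5 and E18.5, averaged over the genotypes, for 16 of the 17 tested Hox genes, with 95% intervals; the red point is the gene that passed, and the dashed line is the median of all genes tested, -0.32. Hoxd9 lies at 2.72, Hoxa6 at -3.57 and Hoxb3 at -1.96, and the other 13 shown lie between -0.40 and 0.81.

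Of the other tested members, 13 had stage values between -0.40 (Hoxd4) and 0.81 (Hoxd8), and their intervals included 0. For Hoxa5 the value was -0.16 (SE 0.33), with a 95% interval from -0.92 to 0.60. For Hoxa2 it was -0.34, for Hoxa3 -0.36, for Hoxa4 -0.27, for Hoxa7 0.34, for Hoxb2 -0.11, for Hoxb4 0.07, for Hoxb5 0.41 and for Hoxb6 0.51. Over the 10 members with a mean of at least 100 reads, the median deviation from the mean of the 8 libraries was -0.53 and -0.66 in the P1.5 replicate 1 libraries but 0.89 and 0.17 in the P1.5 replicate 2 libraries, and it was -0.29 to 0.29 at E18.5.

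**Figure D4:**
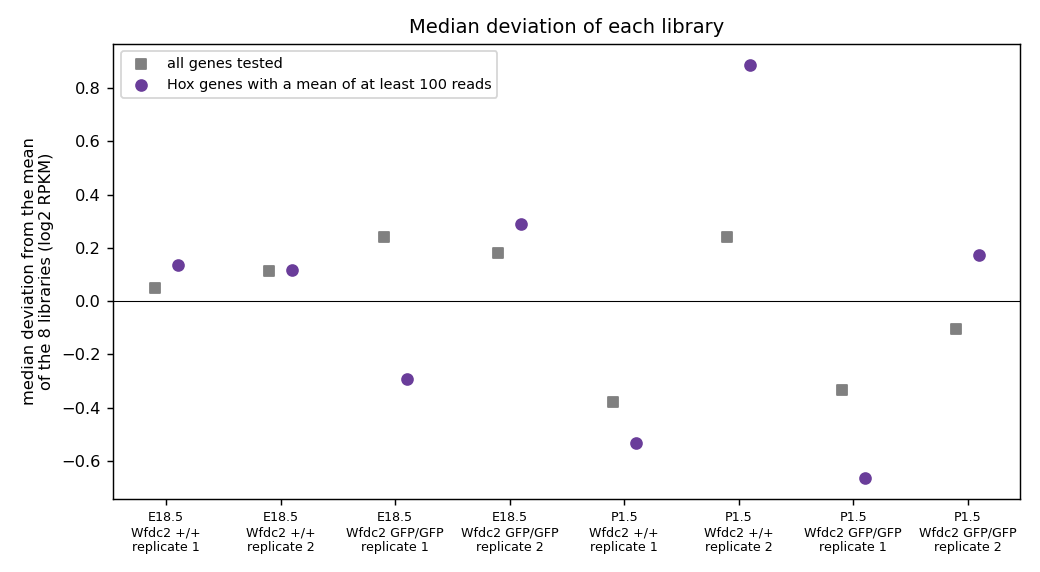
Median deviation of each library from the mean of the 8 libraries in log2 RPKM, for all 15627 genes tested (squares) and for the 10 Hox genes with a mean of at least 100 reads (circles). Among the P1.5 libraries both replicate 1 circles lie below 0 and both replicate 2 circles above it.

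Within the genotypes, Hoxd9 passed in Wfdc2 GFP/GFP only. In Wfdc2+/+ 0 of 17 passed, against 0.0576% of all genes, with 2 members, Hoxd9 and Hoxd4, at an unadjusted p under 0.05 (11.8% of all genes). Of these, Hoxd4 reached the level for testing only through its P1.5 values in Wfdc2+/+. Hoxd9 had a log2 fold change of 1.85 (SE 0.72, limma adjusted p = 0.399) there. In GFP/GFP 1 of 17 passed, against 4.55% of all genes (1.61% as higher), and Hoxd9 had a log2 fold change of 3.60 (SE 0.72, limma adjusted p = 0.0450). That call was lost with the replicate block (0.0651), with voom (0.0538), with a pseudocount of 1 RPKM (0.0516), without the filter (0.0675), without both P1.5 replicate 1 libraries (0.0957), and when either E18.5 Wfdc2+/+ library, E18.5 GFP/GFP replicate 1 or either P1.5 GFP/GFP library was left out. Without single libraries its log2 fold change ran from 2.54, without E18.5 GFP/GFP replicate 1, to 4.65, without E18.5 GFP/GFP replicate 2. The difference between the genotypes, tested as an interaction, was 1.75 (SE 1.02, limma adjusted p = 0.617), so the stage change was not shown to differ. In GFP/GFP, Hoxb3 had -3.34 (adjusted p = 0.0545), Hoxa6 -4.79 (0.0680) and Hoxd4 -2.75 (0.0536), and all 3 passed in a limma fit of the 4 GFP/GFP libraries alone (0.0123, 0.0122 and 0.0387). In that fit 3036 of all 15627 genes passed, against 711 in the main fit, so these passes are not particular to Hox genes. In Wfdc2+/+ the same 3 had -0.57, -2.35 and 1.95, and none passed.

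Groups of 2 libraries often do not overlap. In Wfdc2+/+, 6 of 17 members did not overlap between the stages, against 55.6% of all genes: Hoxb5, Hoxb6, Hoxd4, Hoxd8 and Hoxd9 were higher at P1.5 (27.4% of all genes) and Hoxa6 lower (28.2%). In GFP/GFP it was 7 of 17 against 67.2%, with Hoxd9 higher (18.7% of all genes) and Hoxa2, Hoxa3, Hoxa6, Hoxb3, Hoxb4 and Hoxd4 lower (48.5%). Both shares lay below those of all genes.

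Between the genotypes, no Hox gene passed at either stage. At E18.5 0 of 17 passed by limma, against 0.0192% of all genes, and 0 had an unadjusted p under 0.05 (4.37% of all genes). The members' log2 fold changes, GFP/GFP against Wfdc2+/+, ran from -0.80 (Hoxd9) to 1.21 (Hoxb3), with a median of 0.07 beside 0.09 over all genes. At P1.5 0 of 17 passed by limma, against 0.0128% of all genes, and 1, Hoxd4, had an unadjusted p under 0.05 (10.9%). Hoxd4 reached the level for testing only through P1.5 Wfdc2+/+, as given below. There the values ran from -3.72 (Hoxd4) to 0.97 (Hoxd8), with a median of -0.27 beside -0.20. At E18.5 the groups did not overlap for 4 of 17 members that were higher in GFP/GFP, Hoxa2, Hoxb3, Hoxb4 and Hoxd4 (26.5% of all genes), and for 1 that was lower, Hoxa5 (9.46%). At P1.5 they did not overlap for 4 of 17 (39.4%), with Hoxd8 and Hoxd9 higher (12.6%) and Hoxb6 and Hoxd4 lower (26.9%).

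Hoxa5 had the narrowest error of the 17. Its genotype log2 fold change was -0.26 at E18.5 (95% interval -1.33 to 0.81) and -0.68 at P1.5 (-1.75 to 0.39). Hoxa6, with the widest error, had 0.31 at E18.5 (-2.88 to 3.50) and -2.13 at P1.5 (-5.33 to 1.06). The P1.5 value of Hoxa5 ran from -1.21 without GFP/GFP replicate 2 to -0.14 without GFP/GFP replicate 1, and that of Hoxa6 from -4.09 without Wfdc2+/+ replicate 1 to -0.18 without Wfdc2+/+ replicate 2.

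Hoxd4 (chr2:74721978-74729160), a hindbrain and neck vertebra gene that responds to retinoic acid, had 5 and 10 reads in E18.5 Wfdc2+/+, 13 and 15 in E18.5 GFP/GFP, 21 and 14 in P1.5 Wfdc2+/+, and 0 and 3 in P1.5 GFP/GFP. The P1.5 GFP/GFP libraries were lowest and the P1.5 Wfdc2+/+ libraries highest in RPKM. With P1.5 GFP/GFP set at 3 reads in each library, its level was 7.27-fold lower than that of P1.5 Wfdc2+/+. This is not a bound, because reads were observed in GFP/GFP and counting error in Wfdc2+/+ is left out. The genotype value at P1.5 was a fitted -3.72 (SE 0.66, unadjusted p = 0.000529, limma adjusted p = 0.162), and the interaction was -4.70 (SE 0.93, limma adjusted p = 0.198). Neither passed. The enclosing row, Hoxd3, had 17 and 24, 41 and 46, 30 and 35, and 7 and 10 reads, which include those of Hoxd4, and with them taken out 12 and 14, 28 and 31, 9 and 21, and 7 and 7 were left.

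For the interaction of genotype and stage, 0 of 17 members passed by limma, and 0 of 15627 genes (0.0%). At an unadjusted p under 0.05 there were 2 members, Hoxd4, with the limit given above, and Hoxb3 (-2.77, SE 1.15, limma adjusted p = 0.467), and 10.2% of all genes.

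Some neighbouring members were alike over the libraries, while for others the most alike member lay elsewhere, as for Hoxa7 with Hoxb7 (r = 0.828). Each r is the highest over the other tested members, and random pairs of genes were not measured. With each library centred on its median, the member most like Hoxb5 was Hoxb6 (r = 0.965 over 8 libraries), the member most like Hoxd9 was Hoxd8 (r = 0.854), and Hoxa4 was most like Hoxb2 (r = 0.868). Hoxb7 and Hoxb8 (r = 0.854) and Hoxa3 and Hoxa5 (r = 0.904) share counted reads. Hoxa6 and Hoxb3 were most like each other (r = 0.760). These values describe 8 libraries that share depth and tissue composition, and they carry no test.

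Other RNAs of the clusters were read too. Of 25 further genes within the 4 cluster spans, 13 had at most 3 reads in every library. The test took 13 of the 25, some of them short rows with hardly any reads, and 0 passed between the stages (5.14% of all genes). On the strand opposite to the Hox genes, Gm15051 in the Hoxa cluster had 170 and 181 reads in E18.5 Wfdc2+/+, 336 and 276 in E18.5 GFP/GFP, 405 and 195 in P1.5 Wfdc2+/+, and 295 and 318 in P1.5 GFP/GFP. Its stage log2 fold change was 0.85 (limma adjusted p = 0.0672). Hoxb3os, opposite to parts of Hoxb2 and Hoxb3, had 43 and 42, 211 and 109, 198 and 77, and 112 and 188 reads, and its stage value was 1.24 (limma adjusted p = 0.0605) beside -1.96 for Hoxb3. Hotair, in the Hoxc cluster, had 0 to 3 reads, and the hairpin rows Mir10a and Mir196a-1 had 0 to 1.

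Genes that act with or on the Hox clusters were measured in lists. All 10 TALE cofactors were tested and 0 passed between the stages, against 5.14% of all genes. Their median log2 fold change was -0.42, beside -0.32 over all genes. Meis1 had 526 to 3258 reads, with a stage value of -1.15 (limma adjusted p = 0.0849). Of 25 Polycomb and Trithorax genes 0 passed when the genotypes were averaged (median -0.52), and 3 were lower at P1.5 in GFP/GFP, where 2.94% of all genes were: Cbx2, a Polycomb reader of histone methylation, by -1.96, Ezh1, a histone methyltransferase, by -1.44, and Kdm6b, a histone demethylase, by -1.38.

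Of 19 retinoic acid genes, 13 were tested and 2 were higher at P1.5 (2.58% of all genes), with a median of -0.13. Of these, Aldh1a1, which makes retinoic acid, had a log2 fold change of 1.59 (limma adjusted p = 0.0310). The 3 Cdx genes, activators of Hox genes in the posterior embryo, were not tested, with 0 to 5 reads for Cdx1, 0 to 1 for Cdx2 and 0 for Cdx4. Among 10 tested neighbours of the clusters 1 was lower at P1.5 (2.56% of all genes), Ttll6, a tubulin-modifying enzyme (-1.70, limma adjusted p = 0.0358), and the median was -0.74. Of 14 lung mesenchymal transcription factors 0 passed (5.14% of all genes), with a median of -0.87, and Tbx4 had -1.54 (limma adjusted p = 0.0596). Between the genotypes 0 genes of these lists passed at either stage, where 0.0192% of all genes passed at E18.5 and 0.0128% at P1.5.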

How the data were processed

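RNA of 8 whole mouse lungs was made into strand-specific libraries (NEBNext Ultra Directional kit) and sequenced on HiSeq2500 or GAIIx; which library ran on which is not given in the sources used here. The submitters' processing notes name CASAVA 1.8, Trim Galore 0.4.0, TopHat2 2.1.1 and build mm10. The deposited values are log2 RPKM, made by the authors from reads over each gene's span, and were used as deposited. In each library 99.86% to 99.97% of values with reads came out as whole reads within 0.02 of a read, and genes without reads held a value of 0.9 read. In 143 of 143 same-strand nested pairs the enclosing gene held at least the reads of the nested gene in all 8 libraries, so nested reads are counted more than once. Overlap with genes on the other strand was not counted this way (105 of 255 pairs).

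The test took the 15627 genes whose mean reached 0.05 RPKM, of which 529 short genes had no reads. One mean per group was fitted in limma 3.58.1 (R 4.3.3) with a trended prior, two-sided, with Benjamini-Hochberg adjustment over all genes tested and a threshold of 0.05. The study's methods name a gene ontology analysis and no test of single genes for these data. Other settings were pseudocounts of 0.1 and 1 RPKM, no filter or a filter of 0.5 RPKM, median centring, quantile normalization, the replicate block, other priors, voom on the recovered reads, a threshold of 0.1, the libraries of 1 stage or genotype alone, and leaving out each library. Leaving out nested reads, genes with at most 3 reads, or both P1.5 replicate 1 libraries was chosen after seeing the data. Values in every library are given for members with a mean of at least 100 reads or an adjusted p under 0.05; Hoxa6, Hoxd4, Hoxa9, Hoxd3, Hoxc4 and the other cluster RNAs were added after their values were seen. Of other lists, up to 4 genes past the threshold with the largest change between the stages are named, and further ones were added after their values were seen. Members and lists were chosen with earlier results of these data known. Python 3.11.15, pandas 2.3.3 and matplotlib 3.10.9 were used. A few genes of these lists are not reported here.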

Additional observations from a re-analysis of the deposited data

Results flagged for a closer look

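Of the 22 Hox genes that were not tested, 2 had more than 3 reads in both Wfdc2 GFP/GFP libraries of a stage and at most 3 in both Wfdc2+/+ libraries. The share of all genes that meet this rule was not counted. Over the genes tested, GFP/GFP was higher without overlap for 26.5% at E18.5 and 12.6% at P1.5. Hoxc5 went the other way at P1.5, with 4 and 6 reads in Wfdc2+/+ and 0 and 3 in GFP/GFP. Hoxa13 had 4 and 13 reads in P1.5 GFP/GFP and 0 in the 6 other libraries. This was 2.11-fold higher than P1.5 Wfdc2+/+ when that group is set at 3 reads in each library, with counting error in GFP/GFP left out. Without the filter on low values, Hoxa13 passed between the stages (log2 fold change 2.01, limma adjusted p = 0.0457) but not between the genotypes at P1.5 (adjusted p = 0.172). The stage value averages 3.34 in GFP/GFP and 0.672 in Wfdc2+/+, where Hoxa13 had no reads at either stage. The 0.672 is the value held by genes without reads, scaled to different depths, and Mir196a-2, without reads in any library, had the same. The stage result thus rests in part on filled values, as does the E18.5 side of GFP/GFP. Hoxb9 had 10 and 13 reads in E18.5 GFP/GFP and 3 and 2 in E18.5 Wfdc2+/+, a level 3.89-fold higher on the same floor. This is not a bound, because reads were observed in Wfdc2+/+. The Hoxa13 and Hoxb9 values are counts of few reads in 2 libraries, and no test of them was made with the filter in place.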

How the results depend on the processing

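The number of Hox genes that passed between the stages, 1 in the averaged comparison and 1 in Wfdc2 GFP/GFP, changed with the processing, while the 0 in the other 4 comparisons stayed at 0 under each setting run. With the replicate block, 0 passed in the averaged comparison (Hoxd9 adjusted p = 0.0576) and 0 in GFP/GFP (0.0651), by limma. Same-numbered libraries deviated together with r of 0.23 at E18.5 and 0.21 at P1.5, between the genotypes of a stage. Without genes of X and Y these were 0.17 and 0.19. Between stages r was -0.29 to 0.078. Littermates could pair libraries only within a stage, and the labels do not say which libraries came from littermates. Pairing within a stage was therefore neither shown nor excluded. The number goes with the sex pattern, and the block changed no other count. Without both P1.5 replicate 1 libraries, a setting chosen after seeing the data, 0 and 0 passed. With genes of at most 3 reads left out, also chosen later, 2 and 2 passed, and at an adjusted p under 0.1, 3 and 4. With those genes left out, 1891 and 1323 of all 14814 genes passed, against 803 and 711 of 15627 in the main fit. The count of all genes under 0.1 was not taken. In GFP/GFP, 0 passed with a pseudocount of 1 RPKM and 0 with voom, and 4 passed in its libraries alone. Of all 15627 genes, 237, 129 and 3036 passed in these fits, in the same order. Leaving out a single library, which leaves 1 in its group, changed both counts as well. Without the filter both counts stayed at 1, but the gene was Hoxa13, which had no reads in Wfdc2+/+ or at E18.5. The cause of these changes was not tested.

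Median centring turned the sign of 7 stage values, namely Hoxa2 (0.13), Hoxa3 (0.11), Hoxa4 (0.21), Hoxa5 (0.31), Hoxb2 (0.36), Hoxb8 (0.36) and Hoxd4 (0.073). Quantile normalization turned 3, Hoxb2 (0.0034), Hoxb8 (0.38) and Hoxd4 (0.070), and a pseudocount turned Hoxd4. Without both P1.5 replicate 1 libraries 7 turned, among them Hoxa2 (0.12), Hoxa3 (0.22), Hoxa4 (0.56), Hoxa5 (0.35), Hoxb2 (0.65) and Hoxb8 (0.53), and the Hoxb3 value in Wfdc2+/+ was 0.43. Without single libraries the stage value ran from -0.75 to 0.060 for Hoxa2, -0.84 to 0.31 for Hoxa4, -0.43 to 0.10 for Hoxa5, -0.081 to 0.77 for Hoxa7, -0.55 to 0.34 for Hoxb2 and -0.30 to 0.44 for Hoxb4, and from -1.57 to 0.43 for Hoxb3 in Wfdc2+/+. Signs turned without P1.5 Wfdc2+/+ replicate 1 (5 members) or 2 (3), P1.5 GFP/GFP replicate 1 (3), E18.5 GFP/GFP replicate 1 (1, Hoxb7) or 2 (2, Hoxb2 and Hoxb8) and E18.5 Wfdc2+/+ replicate 2 (1, Hoxb8), and none of these values had passed. Per exon length 12 members, not 7, reached 1. Depth limits the 22 untested members, of which 12 had at most 3 reads in every library.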
